A study of Homo sapiens with 12 samples.

Results

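The 4 human alkaline phosphatase genes were followed through RNA sequencing of UHRF1-depleted esophageal cancer cells. They are ALPP (ENSG00000163283), ALPG (ENSG00000163286, ALPPL2 in older annotations), ALPI (ENSG00000163295) and ALPL (ENSG00000162551), 4 of the 57820 gene identifiers in the count files. The family was chosen by the fold changes of ALPG and ALPP between shRNA and scramble libraries in both lines, which were known beforehand, and all of its genes were then taken. Their differences between shRNA and scramble libraries are therefore given as a description, without a test. Of the 4 genes, 3 passed the filter on low counts and belong to the 16060 genes tested. ALPL did not pass. The 3 that passed had at least 30 reads in each of the 12 libraries, so none of them entered through 1 group alone.

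TE10 and Kyse410 are established lines grown from human squamous cell carcinomas of the esophagus. Each was stably infected to express either an shRNA against UHRF1 (shUHRF1) or a scramble control, and all 4 groups share this infection and selection of poly(A) RNA. Each group had 3 libraries, numbered 1 to 3, and 12 libraries were analysed in all. UHRF1 binds newly replicated, hemimethylated DNA and brings the maintenance methyltransferase DNMT1 to it. The labels do not say how many hairpins were used or whether libraries 1 to 3 stem from separate cultures, so p-values measure only the spread between libraries, which may be technical.

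Alkaline phosphatases are zinc enzymes that remove phosphate groups from many substrates outside the cell, and they are held on the cell surface by a glycosylphosphatidylinositol (GPI) anchor. ALPP is the placental enzyme, ALPG the placental-like or germ cell enzyme and ALPI the intestinal enzyme. Their genes stand side by side on chromosome 2. ALPL, on chromosome 1, encodes the tissue-nonspecific enzyme of bone, liver and kidney. ALPP and ALPG proteins are long-known serum and tissue markers of germ cell tumors and also appear in some carcinomas.

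The sequences of the 3 clustered genes decide how well short reads can tell them apart, and their coding sequences in the GENCODE v29 transcripts were aligned for that reason. Over the whole aligned coding sequence 97.8% of bases were identical between ALPP and ALPG, 89.7% between ALPP and ALPI and 89.5% between ALPG and ALPI. ALPL shared 67.4 to 67.9% with the other 3.

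Identity of this degree leaves parts of the transcripts without a distinguishing base. The longest stretch that ALPP and ALPG share without a mismatch is 339 bases, against 75 bases for ALPP and ALPI and 60 for ALPG and ALPI. Of all 50-base words in the ALPG transcript, 29.3% also occur in ALPP and 0.5% in ALPI. For 100-base words the shares were 15.8% and 0%. The read length is not given in the sources used here. Reads that align equally well to several places were set apart by the counting program and made up 5.49 to 6.87% of each library, and the part of them that belongs to these genes was not counted here. ALPP and ALPG counts are thus uncertain where the genes share reads, and ALPI counts are less exposed by sequence.

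The region before each gene's start is printed because the 3 genes differ in response, and UHRF1 acts on methylated CG sites. The windows hold the 250 bases upstream of the start on the plus strand of GRCh38.p14 and come from the RefSeq promoter table. They are chr2:232378501-232378750 for ALPP, chr2:232406594-232406843 for ALPG and chr2:232455903-232456152 for ALPI. Capitals mark words of 12 or more bases found in all 3 windows.
ALPP: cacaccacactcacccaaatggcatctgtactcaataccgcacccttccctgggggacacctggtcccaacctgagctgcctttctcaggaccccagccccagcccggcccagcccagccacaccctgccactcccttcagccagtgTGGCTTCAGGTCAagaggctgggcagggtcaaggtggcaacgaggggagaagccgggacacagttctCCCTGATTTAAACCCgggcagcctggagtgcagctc
ALPG: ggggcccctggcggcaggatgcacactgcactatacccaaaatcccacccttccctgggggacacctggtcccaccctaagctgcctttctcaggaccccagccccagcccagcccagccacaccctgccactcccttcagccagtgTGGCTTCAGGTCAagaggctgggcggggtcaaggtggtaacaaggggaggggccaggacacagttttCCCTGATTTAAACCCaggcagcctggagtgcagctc
ALPI: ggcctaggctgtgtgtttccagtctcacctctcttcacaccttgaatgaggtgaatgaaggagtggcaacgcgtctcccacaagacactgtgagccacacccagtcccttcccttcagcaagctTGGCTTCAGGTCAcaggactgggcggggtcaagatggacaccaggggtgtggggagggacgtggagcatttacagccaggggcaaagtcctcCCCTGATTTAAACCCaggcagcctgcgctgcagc
The shared words cover 28 bases of each window. Over the aligned bases ALPP and ALPG were identical at 88.5%, ALPP and ALPI at 71.5% and ALPG and ALPI at 73.6%. CG pairs numbered 5 in the ALPP window, 2 in the ALPG window and 5 in the ALPI window, and the median of all 35114 windows of this length was 11. As few or fewer CG pairs were found in 38.1% of all windows for the count of ALPP and ALPI, and in 22.9% for that of ALPG.

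Several short motifs were searched on both strands of these windows. TTTAAA, which lies inside the second shared word, occurred once in each of the 3 and in 11.3% of all windows. TATAAA occurred in none of the 3 and in 10.7% of all windows. The GC box GGGCGG occurred once in ALPG and once in ALPI, not in ALPP, and in 42.6% of all windows. An AP-1 site written TGANTCA was in none of the 3 and in 6.6% of all windows. The E-box CANNTG, which can overlap any of the others, had 3 matches in ALPP, 1 in ALPG and 0 in ALPI, with a match in 61.8% of all windows. These matches are descriptions of letters, and no binding or methylation was measured.

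Levels are given as CPM, the reads of a gene relative to the library's gene reads after scaling by the trimmed mean of M values (TMM). Gene reads ranged from 7857662 to 12005229 per library. UHRF1, the targeted gene, fell from 178.5 ± 5.34 to 85.9 ± 3.50 CPM in TE10 and from 99.1 ± 3.47 to 42.5 ± 0.89 CPM in Kyse410 (mean ± SD, n = 3 each, edgeR adjusted p = 3.22e-23 and 1.62e-24). Of 8 squamous epithelial markers, 7 were at 1 CPM or more in every group, including KRT17, TP63 and DSP. Their summed level ranged from 1098 to 1178 CPM with shUHRF1 and from 1760 to 1810 CPM with the scramble in TE10, and from 886.4 to 925.9 and from 999.5 to 1021 CPM in Kyse410. DSP made up most of this sum. In TE10 every tested marker of this list fell. In Kyse410 KRT6A, TP63 and DSG3 rose (0.48 ± 0.10, 0.14 ± 0.05 and 0.35 ± 0.12 on the log2 scale). KRT14, KRT17 and DSP fell there (-1.79 ± 0.24, -0.98 ± 0.06 and -0.16 ± 0.04), and KRT5 was not called, at 1.37 CPM with shUHRF1 and 1.14 CPM with the scramble. The 5 blood markers together stayed at or below 0.868 CPM. Of 7 fibroblast markers only COL1A1 and PDGFRB reached 1 CPM in any group. Their sum ranged from 49.5 to 56.1 CPM with shUHRF1 and from 44.0 to 47.8 CPM with the scramble in TE10, and from 149.8 to 162.4 and from 113.8 to 123.8 CPM in Kyse410. That sum is nearly all COL1A1, and PDGFRB fell in both lines (-2.25 ± 0.37 and -0.74 ± 0.23). For the endothelial list, with 2 of 3 markers matched, the sum ranged from 12.3 to 15.1 CPM against 7.37 to 10.9 CPM in TE10 and from 91.0 to 104.8 CPM against 24.8 to 25.2 CPM in Kyse410, nearly all of it CDH5. The mitochondrial share of gene reads was 5.23 ± 0.43% with shUHRF1 and 5.998 ± 0.05% with the scramble in TE10, and 3.90 ± 0.10% and 2.38 ± 0.07% in Kyse410. These sums and shares moved with the same groups as the alkaline phosphatase genes, and their part in the results was not tested. In libraries of whole cultures, fewer cells of a type and less RNA per cell cannot be told apart.

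ALPG, the germ cell enzyme, was much higher with shUHRF1 in both lines. In TE10 its level with shUHRF1 was 110.7, 110.4 and 96.9 CPM in libraries 1 to 3, and 7.62, 5.11 and 8.37 CPM with the scramble. In Kyse410 the shUHRF1 libraries held 137.2, 124.3 and 131.7 CPM and the scramble libraries 7.56, 4.90 and 4.64 CPM. All 6 shUHRF1 libraries were high, all 6 scramble libraries were low, and the groups did not overlap. The scramble levels rest on 43 to 93 reads per library, those with shUHRF1 on 730 to 1517.

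On the log2 scale the ALPG difference of shUHRF1 minus scramble was 3.90 ± 0.11 (SE) in TE10 and 4.49 ± 0.10 in Kyse410. As ratios these are 14.98-fold (95% confidence interval 12.9 to 17.4) and 22.5-fold (19.6 to 25.9). These were the largest ratios among the clustered genes in each line.

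ALPP, the placental enzyme, was the most abundant member in every library. With shUHRF1 it stood at 560.4, 560.1 and 559.9 CPM in TE10, against 138.5, 137.1 and 131.2 CPM with the scramble. In Kyse410 it stood at 263.6, 240.8 and 241.8 CPM with shUHRF1 and at 40.6, 38.2 and 41.8 CPM with the scramble. The libraries of each line separated by treatment without overlap, and the highest Kyse410 library with shUHRF1 lay below the lowest of TE10.

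The ALPP difference was 2.05 ± 0.04 in TE10 and 2.63 ± 0.05 in Kyse410 on the log2 scale (SE). These are ratios of 4.13-fold (3.89 to 4.39) and 6.19-fold (5.76 to 6.64). ALPP started from a much higher scramble level than ALPG and its ratio was smaller in both lines.

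ALPI, the intestinal enzyme, went in opposite directions in the 2 lines. In TE10 its level was 3.82, 6.13 and 5.57 CPM with shUHRF1 and 13.96, 10.2 and 12.7 CPM with the scramble. In Kyse410 it was 53.1, 45.4 and 51.1 CPM with shUHRF1 and 23.4, 20.4 and 24.7 CPM with the scramble. All 3 TE10 shUHRF1 libraries lay below the TE10 scramble libraries, and all 3 Kyse410 shUHRF1 libraries lay above those of their scramble. The TE10 values rest on 30 to 120 reads per library.

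The log2 difference of ALPI was -1.25 ± 0.17 in TE10 (2.37-fold lower, 1.88 to 2.99) and 1.12 ± 0.09 in Kyse410 (2.17-fold higher, 1.91 to 2.48). ALPI was thus the 1 clustered gene that did not share the direction of ALPP and ALPG in both lines. Over all genes tested, 38.8% were called in TE10 and 49.3% in Kyse410 at an adjusted p under 0.05. Separation of groups without overlap is a different measure, and its share over all genes was not counted. Because these contrasts led to the family, nothing is read from that separation.

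**Figure D1:**
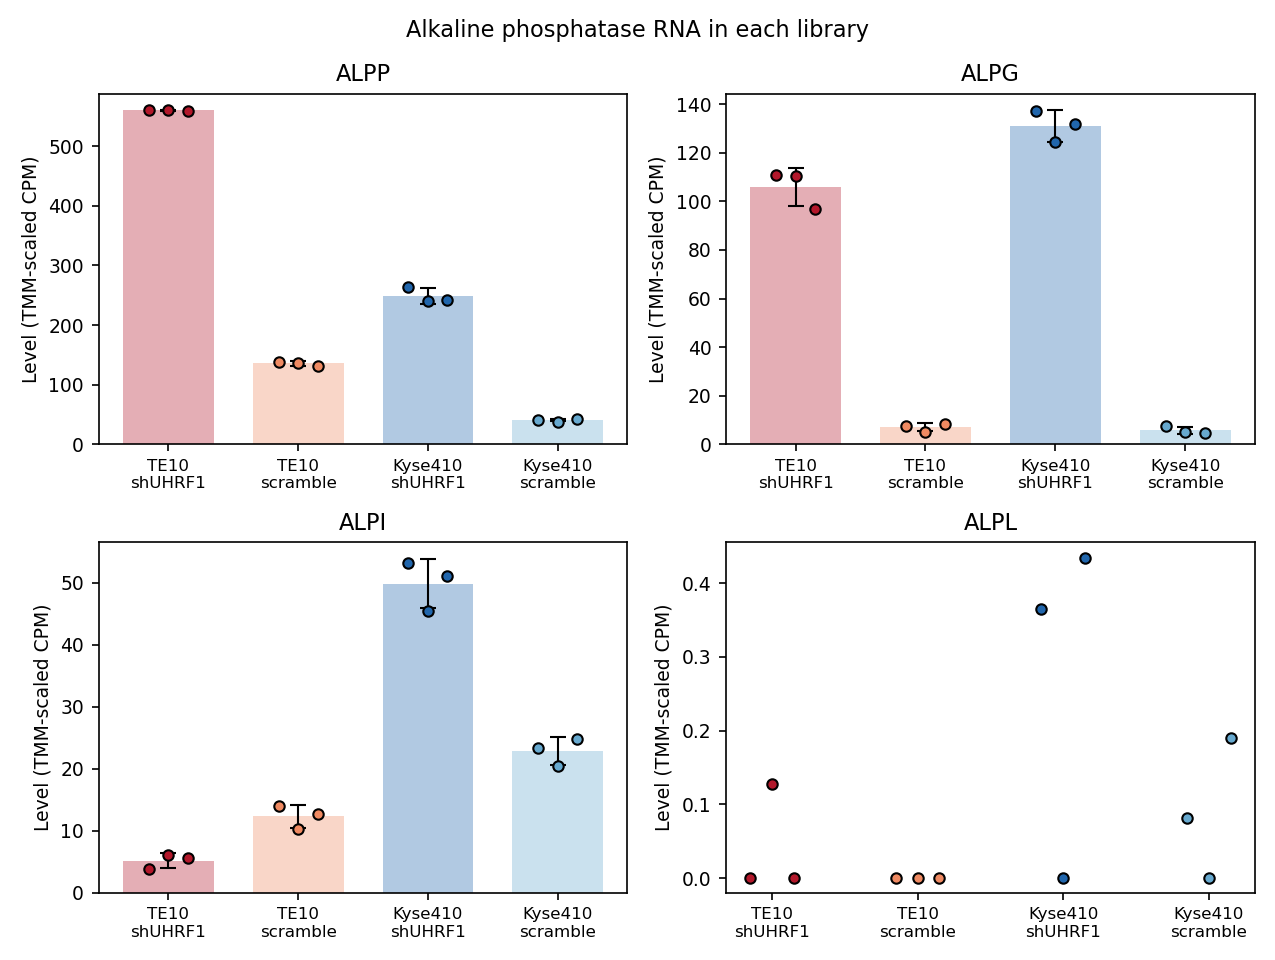
Level of each alkaline phosphatase gene in TMM-scaled CPM (y axis, separate scale per gene) in the 4 groups (x axis). Points are the 3 libraries of a group, bars the mean and whiskers the SD (no bars for ALPL, which had at most 4 reads in a library). ALPP and ALPG are higher with shUHRF1 in both lines, and ALPI is lower in TE10 and higher in Kyse410.

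ALPL, the tissue-nonspecific enzyme, was at the limit of detection in both lines. Summed over 3 libraries it had 1 read in TE10 with shUHRF1, 0 with the scramble, 8 in Kyse410 with shUHRF1 and 3 with the scramble. No library had more than 4 reads. The sums correspond to 0.0431 CPM in TE10 with shUHRF1 (exact Poisson 95% interval 0.00109 to 0.240), 0.247 CPM in Kyse410 with shUHRF1 (0.107 to 0.487) and 0.0919 CPM with its scramble (0.0189 to 0.268). For the TE10 scramble, 0 reads allow a level of up to 0.117 CPM (3 reads over the group), and the exact Poisson upper limit on the scale of the other groups is 0.144 CPM. These intervals cover counting error only, and a difference in ALPL was not detectable at this depth.

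The response was next compared between the lines. This difference is made from contrasts that were in view when the members were chosen, so for them it is given without a test. By edgeR's quasi-likelihood test over all 12 libraries, 38.9% of all genes tested were called for this difference, 19% with a higher response in Kyse410 and 19.9% with a lower one. As a description, the response of ALPI in Kyse410 minus that in TE10 was 2.37 ± 0.19 on the log2 scale (95% interval 1.98 to 2.75). For ALPP it was 0.58 ± 0.07 (0.44 to 0.72) and for ALPG 0.59 ± 0.19 (0.21 to 0.97).

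The ALPG difference between lines moved most when a library was left out. Without TE10 scramble library 3 it was 0.43, and without Kyse410 scramble library 3 it was 0.46. Over the 12 fits that each left out 1 library it ranged from 0.43 to 0.87. The ALPI difference ranged from 2.18 to 2.51 and the ALPP difference from 0.54 to 0.63 over the same fits.

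**Figure D2:**
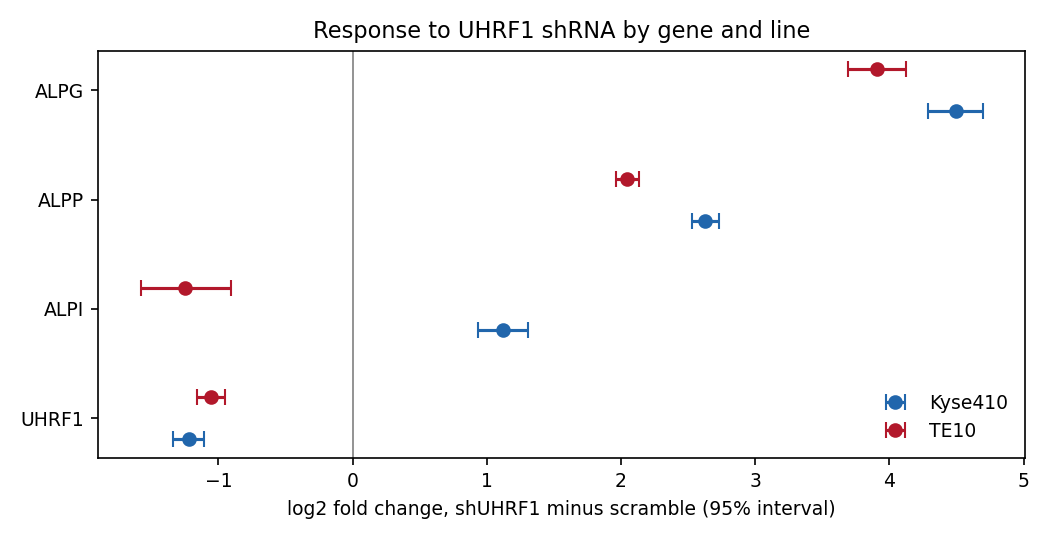
Log2 fold change of shUHRF1 minus scramble (x axis) for UHRF1, ALPI, ALPP and ALPG in TE10 and Kyse410, with 95% intervals from the fit over 12 libraries. ALPG lies at 3.90 and 4.49, ALPP at 2.05 and 2.63, and ALPI on either side of 0.

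The lines also differed before any knockdown. Among scramble controls 73.7% of all genes tested were called between the lines, 36.7% higher and 37.1% lower in Kyse410, and 2 of 3 members were, 1 in each direction. ALPP was lower in Kyse410, at 40.2 ± 1.85 against 135.6 ± 3.87 CPM in TE10 (log2 difference -1.75 ± 0.05, edgeR adjusted p = 2.54e-33). ALPI was higher in Kyse410, at 22.9 ± 2.22 against 12.3 ± 1.90 CPM (0.90 ± 0.12, edgeR adjusted p = 2.5e-09). ALPG was at 5.70 ± 1.62 in Kyse410 and 7.03 ± 1.71 CPM in TE10, and the libraries overlapped.

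The ALPG scramble levels gave a log2 difference of -0.28 ± 0.17 with a 95% interval of -0.63 to 0.07 (edgeR adjusted p = 0.14). It was called without Kyse410 scramble library 1 (-0.57, edgeR adjusted p = 0.0082) and without TE10 scramble library 2 (-0.47, edgeR adjusted p = 0.0198). A difference in the scramble level of ALPG is therefore not settled by these libraries.

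With shUHRF1, 74.7% of all genes tested were called between the lines, 37.8% higher and 36.9% lower in Kyse410, and 3 of 3 members were, 2 of them higher. ALPI was 9.61-fold higher in Kyse410, at 49.9 ± 4.003 against 5.17 ± 1.21 CPM (log2 difference 3.26 ± 0.13, edgeR adjusted p = 1.84e-28). ALPP was 2.25-fold lower in Kyse410, at 248.7 ± 12.9 against 560.1 ± 0.28 CPM (-1.17 ± 0.04, edgeR adjusted p = 2.11e-31). The SD of ALPP in TE10 is smaller than the counting error of its 4220 to 4405 reads per library, so it is no measure of reproducibility. ALPG was 1.24-fold higher, at 131.1 ± 6.50 against 106.0 ± 7.91 CPM (0.30 ± 0.07, edgeR adjusted p = 6.43e-05). Scaling by total gene reads moves the median of all genes in this comparison from 0.02 to 0.14, and that of ALPG from 0.30 to 0.43. These comparisons between lines reuse the libraries of the comparisons within lines and are not independent of them.

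Across the 4 groups the order of levels differed by gene. ALPP ran from TE10 shUHRF1 through Kyse410 shUHRF1 and TE10 scramble down to Kyse410 scramble, and no neighbours in that order overlapped. ALPG ran from Kyse410 shUHRF1 through TE10 shUHRF1 to both scramble groups, which overlapped each other. ALPI ran from Kyse410 shUHRF1 through Kyse410 scramble and TE10 scramble down to TE10 shUHRF1, without overlap. For ALPI the 2 lines thus stood apart, whereas for ALPG the treatments did.

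Levels of different genes were compared as CPM per kilobase of transcript. ALPP led in each group, at 188.5 with shUHRF1 and 45.6 with the scramble in TE10, and at 83.7 and 13.5 in Kyse410. The second place changed hands in both lines. In TE10 ALPI was above ALPG with the scramble, at 4.82 ± 0.75 against 2.82 ± 0.68 CPM per kilobase, and far below it with shUHRF1, at 2.03 ± 0.47 against 42.5 ± 3.17. In Kyse410 ALPI stood at 8.96 ± 0.87 against 2.29 ± 0.65 for ALPG with the scramble, and at 19.6 ± 1.57 against 52.6 ± 2.61 with shUHRF1. The libraries of ALPG and ALPI did not overlap in any group, and the order was the same with the length of all annotated exons.

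The make-up of the family's reads changed accordingly. The 4 genes together reached 671.3 ± 7.88 CPM with shUHRF1 and 154.9 ± 4.48 with the scramble in TE10, and 429.9 ± 22.4 and 68.8 ± 4.63 CPM in Kyse410. ALPG made up 15.8 ± 1.003% of these reads with shUHRF1 and 4.53 ± 1.09% with the scramble in TE10. In Kyse410 it made up 30.5 ± 0.43% and 8.26 ± 2.08%. ALPI made up 0.77 ± 0.18% and 7.92 ± 1.07% in TE10, and 11.6 ± 0.49% and 33.2 ± 1.32% in Kyse410. ALPP took most of the reads throughout, and its share differed more by line than by treatment, at 83.4 ± 0.96% and 87.5 ± 2.09% in TE10 and 57.9 ± 0.90% and 58.5 ± 1.75% in Kyse410.

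**Figure D3:**
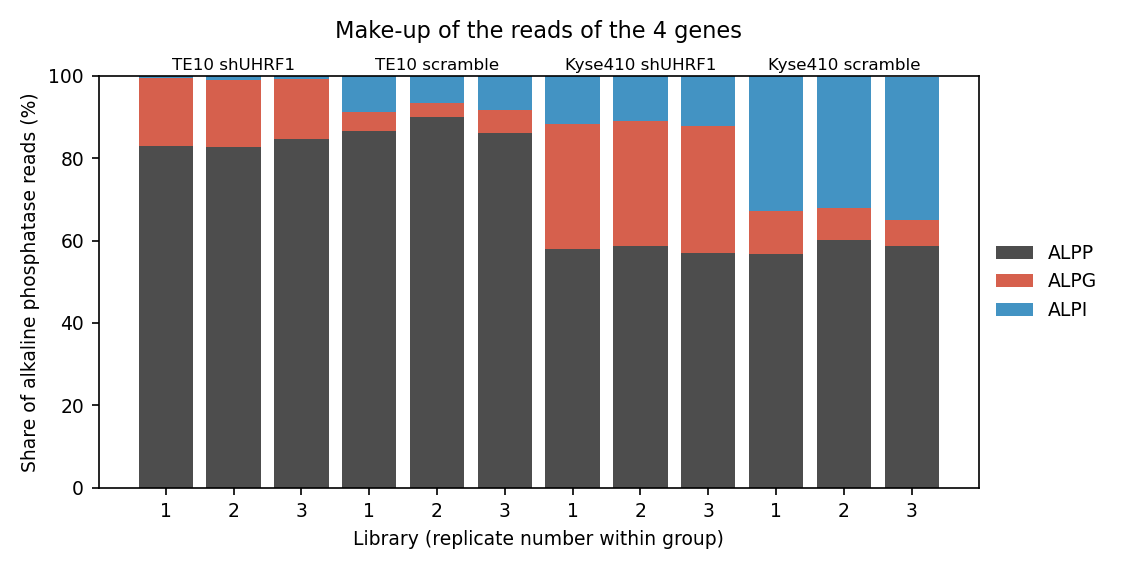
Share of the family's reads (y axis, percent) taken by ALPP, ALPG and ALPI in each of the 12 libraries (x axis, replicate number within group). ALPI takes about 33% in the Kyse410 scramble libraries and under 1% in TE10 with shUHRF1.

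Since ALPP and ALPG share the most sequence, the split of their reads was looked at library by library. ALPG held 16.5, 16.5 and 14.8% of the reads of ALPP plus ALPG in TE10 with shUHRF1, and 5.22, 3.6 and 5.99% with the scramble. In Kyse410 it held 34.2, 34.0 and 35.3% with shUHRF1 and 15.7, 11.4 and 10.0% with the scramble. The exact binomial 95% interval was 13.8 to 15.8% in the lowest TE10 library with shUHRF1 and 4.77 to 7.41% in the highest with the scramble. In Kyse410 the corresponding intervals were 32.7 to 35.5% and 12.9 to 18.9%. Within each line every shUHRF1 library had a larger ALPG share than every scramble library. This split restates the fold changes of ALPG and ALPP, which led to the family, and the intervals cover counting error only.

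A second overlap affects ALPP alone. An antisense gene listed as AC068134.1 (ENSG00000224516) lies inside it, and 81.6% of its 680 exon bases in GENCODE v29 fall on exons of the ALPP coding transcript. It was at 286.0 ± 16.6 and 73.2 ± 4.55 CPM in TE10 with shUHRF1 and scramble, and at 130.0 ± 5.32 and 20.9 ± 3.29 CPM in Kyse410. It had from 0.475 to 0.59 reads per read of ALPP over the 12 libraries. Its log2 difference was 1.97 ± 0.06 in TE10 and 2.64 ± 0.07 in Kyse410, close to that of ALPP. The strand setting of the counting is not given in the sources used here, so reads of ALPP and of its antisense gene cannot be told apart. With both summed, a choice made after seeing the data, the ALPP difference was 2.02 in TE10 and 2.63 in Kyse410.

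The genes around the cluster were measured to see how far a change reached along the chromosome. Of 8 protein-coding neighbours, 4 on each side, 4 passed the filter. In TE10 none of these 4 rose and 1 fell, beside 18.8% higher and 20% lower among all genes tested. In Kyse410 1 rose and none fell, beside 22.6% and 26.7%. PRSS56, a serine protease gene, rose in Kyse410 from 7.76 to 27.2 CPM (log2 fold change 1.79 ± 0.13, edgeR adjusted p = 1.98e-17) and was at 8.24 and 9.67 CPM in TE10 (0.24 ± 0.16, edgeR adjusted p = 0.254). PDE6D, which carries prenylated proteins, fell in TE10 (-0.71 ± 0.13) and had a value of -0.11 ± 0.12 in Kyse410.

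The other 2 tested neighbours were not called in either line. DIS3L2, an RNA exonuclease next to ALPP, had log2 fold changes of -0.15 ± 0.09 in TE10 and -0.19 ± 0.09 in Kyse410. COPS7B, a subunit of the COP9 signalosome, had -0.06 ± 0.09 and 0.10 ± 0.10. NPPC, ECEL1, CHRND and CHRNG were below the filter, each at a mean of 0.764 CPM or less in every group. The pseudogenes ECEL1P1, ECEL1P2, ECEL1P3 and DIS3L2P1, which lie near or among the clustered genes and were named after their values were seen, had at most 3 reads in any library.

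**Figure D4:**
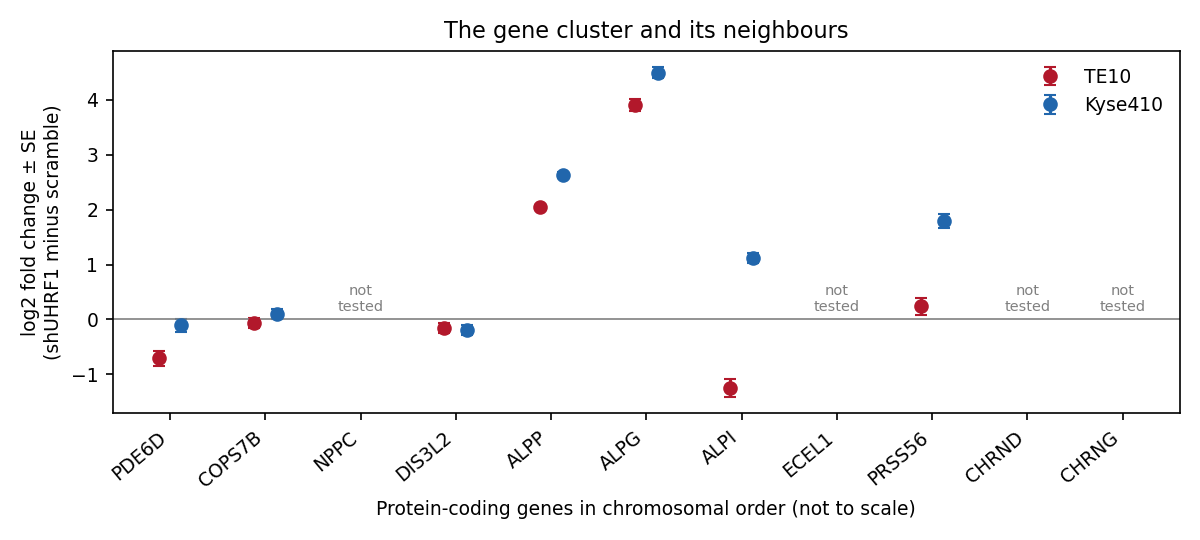
Log2 fold change of shUHRF1 minus scramble with its SE (y axis) for the clustered genes and their 4 neighbours on each side, in chromosomal order and not to scale (x axis). ALPP and ALPG stand above 2 in both lines, PRSS56 stands at 1.79 in Kyse410, and DIS3L2 and COPS7B lie within 0.2 of 0.

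Around ALPL, all 8 neighbours passed the filter. In TE10 1 rose and 3 fell, and in Kyse410 2 rose and 1 fell, beside the shares of all genes given for the cluster's neighbours. Those called in either direction, 4 of 8 and 3 of 8, compare with 38.8% and 49.3% of all genes tested. RAP1GAP, which turns off the small GTPase RAP1, rose in both lines (0.61 ± 0.09 in TE10 and 0.44 ± 0.08 in Kyse410). HSPG2, which encodes the matrix proteoglycan perlecan, fell in TE10 (-0.37 ± 0.05), as did LDLRAD2 (-0.39 ± 0.10) and the translation factor gene EIF4G3 (-0.21 ± 0.05). LDLRAD2 shares 47.2% of its exon bases with HSPG2, and reads in that shared part cannot be told apart without the strand. In Kyse410 HP1BP3, a chromatin protein gene, rose (0.14 ± 0.04) and USP48, a deubiquitinase gene, fell (-0.27 ± 0.07). ECE1, an endothelin-converting enzyme gene, and NBPF3 were called in neither line.

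Proteins of this family need a GPI anchor, zinc and a route to the surface, and genes of these steps were counted. Of 31 genes for GPI anchor synthesis, attachment and remodelling, 28 were tested. In TE10 4 rose and 6 fell, and in Kyse410 5 rose and 7 fell. The median log2 fold change of the 28 was -0.04 in each line, against 0.001 in TE10 and -0.025 in Kyse410 over all genes tested. GPAA1 and PIGK, both subunits of the transamidase that attaches the anchor, fell in TE10 (-0.19 ± 0.05 and -0.56 ± 0.09). GPAA1 also fell in Kyse410 (-0.33 ± 0.05), where PIGK had a value of -0.14 ± 0.09. PGAP6, which acts on GPI anchors at the cell surface, rose in TE10 (0.35 ± 0.06) and had 0.01 ± 0.05 in Kyse410. The share of this list that was called was 35.7% in TE10 and 42.9% in Kyse410, near the share of all genes.

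Genes of extracellular phosphate, pyrophosphate and nucleotide handling were a second group, since these are substrates and products of the enzymes. Of 18, 10 were tested, with 2 higher and 3 lower in TE10 and 4 higher and 1 lower in Kyse410. This is 50% called in each line, beside 38.8% and 49.3% of all genes tested. NT5E, the GPI-anchored enzyme that turns AMP into adenosine, fell in TE10 from 453.6 ± 5.41 to 188.8 ± 11.8 CPM (-1.26 ± 0.05) and had -0.06 ± 0.05 in Kyse410. ANKH, a membrane protein needed for extracellular pyrophosphate, rose in both lines (0.21 ± 0.05 and 0.45 ± 0.05). XPR1, the phosphate exporter, fell in both (-0.31 ± 0.06 and -0.30 ± 0.05). The median of the 10 was -0.04 in TE10 and 0.15 in Kyse410.

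Of the genes for zinc supply and vitamin B6 salvage, 2 are given here. PDXK, which phosphorylates vitamin B6, rose in TE10 (0.42 ± 0.05) and fell in Kyse410 (-0.14 ± 0.05). SLC30A7, a zinc transporter of the secretory pathway, fell in Kyse410 (-0.20 ± 0.08) and had -0.17 ± 0.08 in TE10.

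Other genes of the tissues that normally make these enzymes were counted next. Of 34 placental trophoblast genes, 13 were tested, and 7 rose and 3 fell in TE10 while 4 rose and 4 fell in Kyse410. This is 76.9% called in TE10 and 61.5% in Kyse410, beside 38.8% and 49.3% of all genes tested. The filter, which a gene high in only 1 group passes more easily, left out most of the list. The lists were also chosen with earlier results of these data known, which limits this comparison. CGA, the common subunit of the glycoprotein hormones, rose from 1.88 ± 0.57 to 3.93 ± 0.81 CPM in TE10 (1.03 ± 0.26) and from 5.99 ± 1.08 to 38.8 ± 0.77 CPM in Kyse410 (2.68 ± 0.12). GATA2, a transcription factor of trophoblast and blood, rose in both lines (0.66 ± 0.05 and 0.60 ± 0.05). PEG10, an imprinted gene needed for the placenta, fell in both (-1.49 ± 0.08 and -0.56 ± 0.08). The list's median was 0.21 in TE10 and 0.09 in Kyse410, beside 0.001 and -0.025 over all genes tested, and its members did not move one way.

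Of 22 primordial germ cell and seminoma genes, 6 were tested, with 3 higher and 0 lower in TE10 and 4 higher and 1 lower in Kyse410. This is 50% called in TE10 and 83.3% in Kyse410, beside 38.8% and 49.3% of all genes tested. ZFP42, a pluripotency marker also called REX1, rose from 2.07 ± 0.06 to 18.95 ± 0.36 CPM in TE10 (3.19 ± 0.18) and from 6.60 ± 0.64 to 22.7 ± 3.26 CPM in Kyse410 (1.77 ± 0.13). PRDM1, a regulator of germ cell specification, rose in both lines (0.91 ± 0.20 and 1.41 ± 0.15). DPPA2, an early embryonic chromatin factor, rose from 2.0 ± 0.72 to 3.71 ± 0.33 CPM in TE10 and from 1.64 ± 0.35 to 3.99 ± 0.38 CPM in Kyse410. SOX17, a transcription factor of early germ cells that was named after its values were seen, was the 1 that fell in Kyse410 (-0.59 ± 0.18). The list's median was 0.87 in TE10 and 1.34 in Kyse410. Most of the listed genes were below the filter, and a gene that is detected only in the group where it is high passes the filter more easily.

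Of 16 bone and mineralization genes, the tissue of ALPL, 7 were tested, with 4 higher and 2 lower in TE10 and 4 higher and 1 lower in Kyse410. This is 85.7% called in TE10 and 71.4% in Kyse410, beside 38.8% and 49.3% of all genes tested. Most of this list too was below the filter, which limits the comparison in the same way. SPARC, or osteonectin, fell from 106.9 ± 1.40 to 7.495 ± 0.85 CPM in TE10 (-3.83 ± 0.09) and from 75.8 ± 6.16 to 22.3 ± 0.93 CPM in Kyse410 (-1.76 ± 0.07). BMP2, a bone-inducing growth factor, rose in both lines (1.64 ± 0.09 and 0.33 ± 0.04). COL1A1, the main collagen of bone, rose in both (0.26 ± 0.07 and 0.43 ± 0.05). The median of the 7 was 0.69 in TE10 and 0.33 in Kyse410.

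Of 19 enterocyte genes, the cell type of ALPI, 5 were tested, with 2 higher and 1 lower in TE10 and 1 higher and 1 lower in Kyse410. This is 60% called in TE10 and 40% in Kyse410, beside 38.8% and 49.3% of all genes tested. Here as well most of the list was below the filter. VIL1, the microvillus protein villin, rose in both lines (0.94 ± 0.14 and 0.72 ± 0.11), including TE10, where ALPI was lower. HNF4A, an intestinal and hepatic transcription factor, rose in TE10 from 5.11 ± 1.12 to 13.5 ± 1.36 CPM (1.41 ± 0.19) and was near 1 CPM in Kyse410. KLF4, an epithelial differentiation factor, fell in both lines (-0.28 ± 0.07 and -0.90 ± 0.05). The median of the 5 was 0.10 in each line.

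Genes whose profile over the 12 libraries was most like that of ALPG were found by Euclidean distance between log2 CPM values centred on each gene's mean. Among 10881 genes with a symbol and a mean of at least 5 CPM the median distance was 7.515. The nearest was NCCRP1, which encodes an F-box associated domain protein, at a distance of 0.734 (Pearson's r = 0.997). It was at 15.3 and 1.19 CPM in TE10 with shUHRF1 and scramble, and at 22.8 and 0.992 CPM in Kyse410. The scramble levels rest on only 31 reads in TE10 and 33 in Kyse410, each summed over the group. NCCRP1 thus reached the mean of 5 CPM through its shUHRF1 libraries. The next were ZNF114 at 2.08 (r = 0.966), MPPED1 at 2.19 (r = 0.957) and FRMD3 at 2.20 (r = 0.981). With the scramble, ZNF114 was at 1.15 CPM in TE10 and 1.24 CPM in Kyse410, and MPPED1 at 1.6 and 2.77 CPM. Both genes thus also reached the mean of 5 CPM through their shUHRF1 libraries.

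B4GALNT1, a ganglioside synthase gene, followed at 2.63, then OTULINL at 2.83, CALHM3, which encodes an ion channel subunit of taste cells, at 3.67 and ZFP42 at 3.93. B4GALNT1 too, at 2.13 CPM in TE10 and 1.12 CPM in Kyse410 with the scramble, reached the mean of 5 CPM through its shUHRF1 libraries. FRMD3, OTULINL, CALHM3 and ZFP42 each had a scramble group above 5 CPM. All 8, picked for this likeness, were high in both shUHRF1 groups and low in both scramble groups. ALPP lay at a distance of 4.19 from ALPG (r = 0.843), and ALPI at 8.37 (r = 0.018), farther than the median gene. These are descriptions over 12 libraries that fall into 4 groups, and genes were picked for likeness to a gene that was itself chosen for its response.

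**Figure D5:**
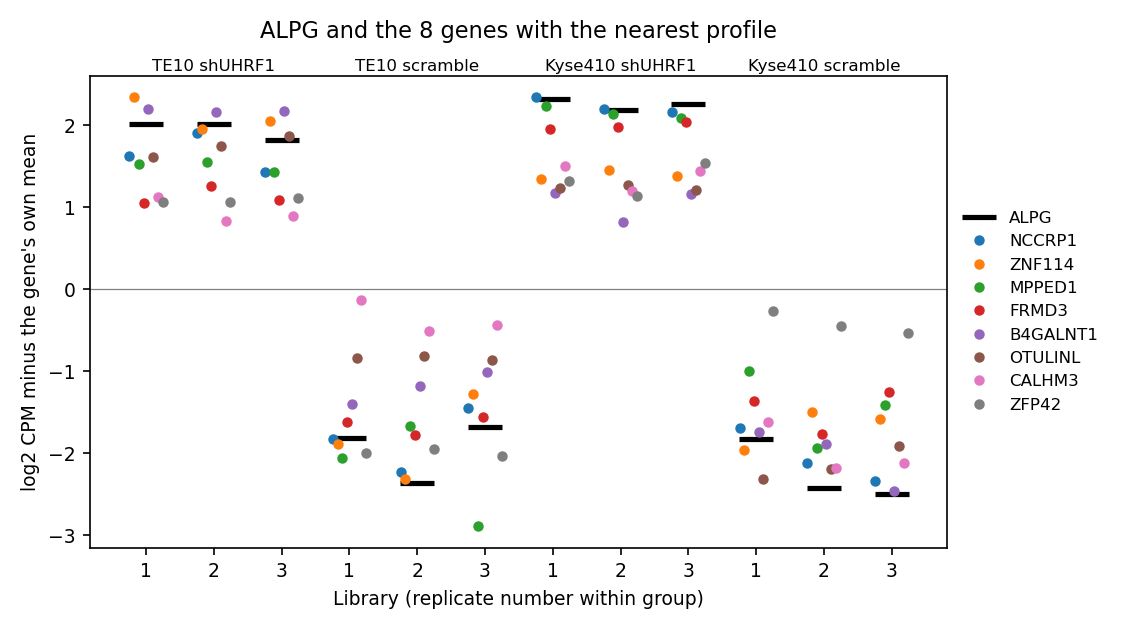
Log2 CPM minus each gene's own mean (y axis) for ALPG (black bars) and the 8 genes nearest to it (points) in the 12 libraries (x axis, replicate number within group). Every gene lies above 0 in the 6 shUHRF1 libraries and below 0 in the 6 scramble libraries.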

How the data were processed

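Poly(A) RNA libraries of 2 cell lines were analysed, 3 in each of 4 groups. The authors deposited raw read counts per gene, whole numbers with no scaling. Per the submitters' processing notes, bcl2fastq 2.19, HISAT2 2.1.0, HTSeq 0.9.1, DESeq2 and build GRCh37.p13 were used. Their order, annotation release and strand setting and the read length were not given in the sources used here. Reads in no gene (42.9 to 44.7% of a library) and the other counters were left out.

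Identifiers were matched to symbols (51996 of 57820, holding 98.9% of gene reads), and UHRF1 was named by hand from ENSG00000034063. Counts were filtered with filterByExpr, scaled by TMM and fitted in 1 edgeR 4.0.16 quasi-likelihood model (R 4.3.3) over 12 libraries with a mean per group. The fit was tested on simulated data. The contrasts were shUHRF1 minus scramble in each line, their difference, and Kyse410 minus TE10 within scramble and within shUHRF1 libraries. Benjamini-Hochberg adjustment ran over 16060 genes, with calls made below 0.05. Rose and fell mean called.

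The members and gene lists were chosen with earlier results of these data known. Named genes were the 4 members, UHRF1, the tested neighbours (up to 4 on each side), the 3 called members of each list with the smallest adjusted p in either line, and the 8 genes nearest to ALPG. An item that these rules take is not reported here. Alternatives were DESeq2 1.42.0 (tool and size factors), total reads, no filter, each library left out, a replicate block, fits of 6 libraries, and summed family reads. Same-numbered libraries showed little common deviation (r from -0.005 to 0.037), and libraries of different number gave r from -0.058 to 0.033. The main fit therefore used no pairing, and a shared culture or batch was not tested. Biopython 1.88 aligned GENCODE v29 and RefSeq (GRCh38.p14) sequences.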

Additional observations from a re-analysis of the deposited data

Results flagged for a closer look

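Of the 36 members, neighbours and named list genes that were tested, 21 had a response to shUHRF1 that differed between the lines by edgeR's quasi-likelihood test of the difference (Kyse410 minus TE10, log2 scale), beside 38.9% of all genes tested. The list genes among the 36 were picked for a small adjusted p in either line, so this count is not comparable with that share. Among the members these were ALPI at 2.37, ALPG at 0.59 and ALPP at 0.58, with the errors given above. For these members the difference is made from contrasts that were in view when the family was chosen. Their place in this count is therefore not read as a test. As a description, the ALPG value was 0.43 without TE10 scramble library 3 and 0.46 without Kyse410 scramble library 3. ALPI is the 1 member whose response had opposite signs in the 2 lines.

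Near the cluster, the difference was 1.56 for PRSS56 and 0.60 for PDE6D. Near ALPL it was 0.42 for LDLRAD2, 0.34 for HSPG2, 0.22 for EIF4G3 and 0.17 for HP1BP3. These neighbours all had the higher value in Kyse410.

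Among genes of anchor, phosphate and vitamin B6 pathways, the difference was 1.21 for NT5E, 0.42 for PIGK, 0.24 for ANKH, -0.34 for PGAP6 and -0.56 for PDXK. PDXK was called in both lines, in opposite directions.

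Among tissue genes the values were 2.07 for SPARC, 1.65 for CGA, 0.93 for PEG10, -0.62 for KLF4, -1.19 for HNF4A, -1.31 for BMP2 and -1.42 for ZFP42. ZFP42 rose in both lines and less in Kyse410, whereas ALPG had the larger value there. HNF4A was near 1 CPM in Kyse410, which limits its comparison (edgeR adjusted p = 0.0199).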

How the results depend on the processing

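The counts of genes called stayed within 1.5 times under every alternative run, in all 5 comparisons (104 values). With a replicate block, 6346 genes were called in TE10 against 6231 without it, and 7993 against 7921 in Kyse410. For the response of Kyse410 minus that of TE10 the counts were 6368 and 6240. Between lines, the blocked fit compared the levels at replicate 1 rather than the group means. Its 10339 calls between scramble controls and 10621 between shRNA libraries are therefore not comparable with 11839 and 11998 in the main fit. The block changed no call of a member, with the same limit between lines. Summing reads before the fit changed signs. ALPP, ALPG and ALPI together gave 2.12 in TE10 where ALPI alone was negative, -1.17 between scramble controls where ALPI alone was positive, and -0.64 between shRNA libraries where ALPG and ALPI alone were positive. ALPP and ALPG together gave -0.81 between shRNA libraries, opposite to ALPG alone, and 2.22 in TE10 and 3.05 in Kyse410. A sum follows ALPP, which holds most of the reads, by construction. The ALPG values between lines that turned on 1 scramble library are given above, and no other member's call changed when a library was left out. Apart from those fits and the sums, none of the 3 tested members changed sign or call. ALPL was not tested. ALPG in scramble libraries, with 43 to 93 reads each, and ALPI in TE10 are the values that depth limits most.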
